A study of Dascyllus aruanus with 17 samples.

Results

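Casein kinases 1 delta and epsilon (CSNK1D and CSNK1E) and the F-box proteins FBXL21 and BTRC set the lifetime of clock proteins, and their transcripts were followed here in the brain of a reef damselfish, Dascyllus aruanus, under natural and lit nights. An assembled gene, called a feature below, was taken as a member when its deposited gene name equalled, in any letter case, CSNK1D, CSNK1E, FBXL21 or BTRC, or such a symbol followed by A or B. This rule found 16 features among 79921 annotated ones, namely 6 of CSNK1D, 7 of CSNK1E, 2 of FBXL21 and 1 of BTRC. The count table held 6 of the 16, out of 21805 features in all, and all 6 passed the filter on low counts. They were 2 CSNK1D features, 3 CSNK1E features and 1 FBXL21 feature. The other 10, with deposited bit scores of 50.8 to 535 against their best match, were not analysed here. The sole BTRC feature is among them, so the results have no BTRC values.

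In the circadian feedback loop of vertebrates, PER and CRY proteins build up, enter the nucleus and repress their own genes. CSNK1D and CSNK1E phosphorylate PER proteins, and phosphorylated PER is bound by BTRC, the substrate-binding part of a ubiquitin ligase, and degraded by the proteasome. CRY proteins are ubiquitinated by other ligases, and in the mouse FBXL21 is an F-box protein that binds CRY. Mutations of CSNK1D in humans and of CSNK1E in the hamster shorten the daily period, which is why these kinases are known as pacesetters of the clock.

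Wild-caught fish of 6 colonies had 96 h to settle and then spent 72 h either with dim white light during the dark phase (artificial light at night, ALAN) or under the natural light-dark cycle (control). Single brains were taken at zeitgeber time (ZT) 23, before sunrise and called night here, or at ZT 11, before sunset and called day. The groups were ALAN night (n = 4), control night (n = 4), ALAN day (n = 3) and control day (n = 3). Only these 2 times were sampled, so no peak time or rhythm was measured. Which colony a fish came from is not known here, so group mates can stem from the same colony, and each p-value treats a fish as independent.

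The 14 libraries held 14942952 to 23051193 expected counts (estimated read numbers). Levels are in CPM (counts scaled to a common library size) and are not divided by length, so a level is compared between groups and never between features. Pearson's r across features was 0.918 to 0.949 within groups and 0.890 to 0.947 between groups, on the log2 CPM scale. Neuron markers (5 of 6 symbols found) summed to 1229 to 1797 CPM in every library, and radial glia and astroglia markers (5 of 6 found) to 3410 to 6957 CPM. Sums were 21.3 to 1300 CPM for photoreceptor markers, 62.4 to 1412 for pituitary, 28.4 to 700 for muscle, 75.0 to 446 for liver and 10.7 to 42.7 for blood markers. In whole brain, fewer cells of a type and less RNA per cell cannot be told apart.

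The kinase names are those of the best match and should be read loosely. All 5 kinase features in the count table carry the protein kinase domain and the same pair of ortholog groups, one for CSNK1D and one for CSNK1E. Bit scores were 796 for CSNK1D DN1746_c1_g1 and 516 for CSNK1D DN1746_c0_g1. For CSNK1E they were 674 for DN1746_c0_g2, 409 for DN13848_c1_g1 and 246 for DN5256_c0_g3. The assembler placed DN1746_c1_g1, DN1746_c0_g1 and DN1746_c0_g2 in a single read cluster, DN1746, where features can share sequence and reads can be divided between them. FBXL21 DN26441_c0_g1 (bit score 857) carries the F-box domain.

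Some kinase features differed between night and day, and not in the same direction. CSNK1D DN1746_c1_g1 was about 1.91 times as abundant at night as by day, while CSNK1E DN5256_c0_g3 and CSNK1E DN1746_c0_g2 were lower at night on average. In controls alone DN1746_c0_g2 did not pass (edgeR adjusted p 0.320). DN1746_c1_g1 and DN1746_c0_g2 belong to the DN1746 read cluster, whose summed level did not pass on average over both treatments (edgeR adjusted p 0.0903). How reads were divided within it was not tested. The other 2 kinase features and FBXL21 did not pass the test. For ALAN against control, 0 of the 6 features were called at night or by day, where 0.0289% and 0.00481% of all features were called.

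CSNK1D DN1746_c1_g1 had 104, 87.6, 98.7 and 88.3 CPM in ALAN night brains, against 46.2, 43.1 and 48.7 CPM in ALAN day brains. In controls it had 87.6, 91.1, 95.9 and 85.5 CPM at night, against 54.1, 47.0 and 50.7 CPM by day. Every one of the 8 night brains lay above every one of the 6 day brains, with a gap between 85.5 and 54.1 CPM. The log2 fold change for night against day was 1.04 under ALAN (SE 0.0997, 95% interval 0.82 to 1.25, edgeR adjusted p 5.39e-05) and 0.83 in controls (SE 0.0991, 95% interval 0.62 to 1.04, edgeR adjusted p 0.000380). Averaged over both treatments it was 0.94 (SE 0.0703, edgeR adjusted p 2.28e-06), which placed the feature at rank 33 by p of 20782 tested.

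**Figure D1:**
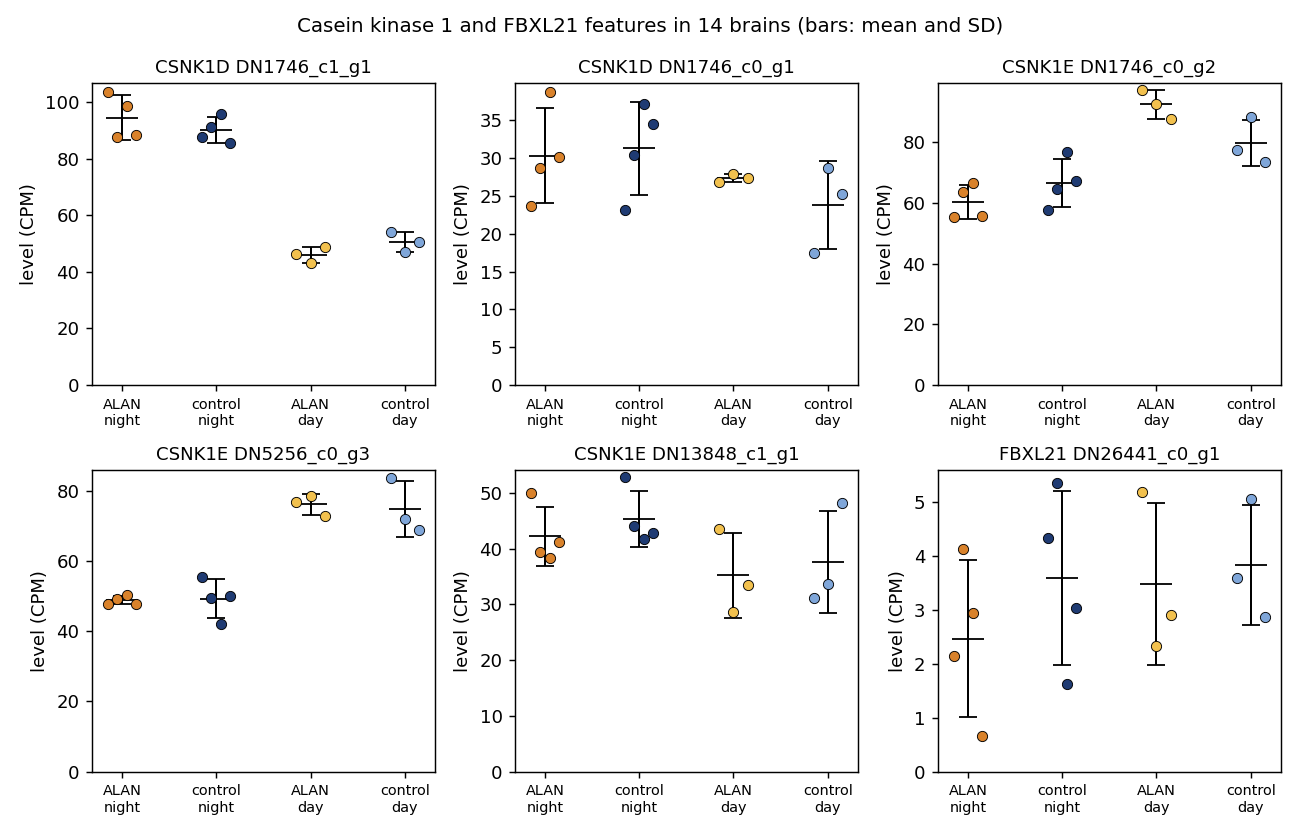
Level in CPM (y axis, from 0) of each of the 6 features in ALAN night, control night, ALAN day and control day brains (x axis), with a point per fish and the mean and SD as bars. CSNK1D DN1746_c1_g1 sits between 85.5 and 104 CPM in all night brains and between 43.1 and 54.1 CPM in all day brains, CSNK1E DN5256_c0_g3 shows the opposite order, and the FBXL21 groups overlap.

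The second CSNK1D feature leaned the same way as the first without passing the test. CSNK1D DN1746_c0_g1 had 23.7, 28.7, 38.8 and 30.1 CPM in ALAN night brains, against 26.8, 28.0 and 27.3 CPM in ALAN day brains. In controls it had 23.1, 30.4, 37.2 and 34.5 CPM at night, against 17.4, 28.7 and 25.2 CPM by day. The night and day ranges overlapped in both treatments, and the spread among night fish was wide. Its log2 fold change for night against day was 0.15 under ALAN (edgeR adjusted p 0.869) and 0.39 in controls (edgeR adjusted p 0.401), and the averaged difference of 0.27 had a 95% interval of −0.04 to 0.58. The log2 ratio of DN1746_c0_g1 to DN1746_c1_g1 counts was −1.60 at night and −0.93 by day on average over fish. This is a difference of −0.67 (two-sided exact permutation within treatments, p 0.00571, adjusted 0.00714 over 10 pairs of kinase features). Night and day values of this ratio overlapped between fish. DN1746_c1_g1 alone separated all night from all day brains, and the 2 features share a read cluster. The p of this ratio is therefore no separate evidence for DN1746_c0_g1.

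Of the CSNK1E features, DN5256_c0_g3 had the clearest difference. It had 47.8, 49.3, 50.3 and 47.8 CPM in ALAN night brains, against 76.8, 78.5 and 72.9 CPM in ALAN day brains. In controls it had 55.5, 49.3, 41.9 and 50.1 CPM at night, against 83.7, 71.8 and 68.7 CPM by day. All 8 night brains were below all 6 day brains, and the ALAN night fish all lay between 47.8 and 50.3 CPM. The log2 fold change was −0.64 under ALAN (SE 0.107, edgeR adjusted p 0.00804) and −0.60 in controls (SE 0.107, edgeR adjusted p 0.00888), with an average of −0.62 (SE 0.0754, edgeR adjusted p 0.000227). Without control day replicate 1, which had the highest level of all fish, the difference in controls was −0.51 and its edgeR adjusted p 0.0570, and with only the control groups in the fit it was −0.60 with an adjusted p of 0.0855.

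CSNK1E DN1746_c0_g2 had 55.5, 63.6, 66.5 and 55.6 CPM in ALAN night brains, against 97.2, 92.6 and 87.7 CPM in ALAN day brains. In controls it had 57.6, 64.6, 76.7 and 67.4 CPM at night, against 77.4, 88.3 and 73.6 CPM by day. Night and day did not overlap under ALAN, whereas in controls the highest night fish exceeded the lowest day fish. The log2 fold change was −0.62 under ALAN (SE 0.115, edgeR adjusted p 0.0176) and −0.26 in controls (SE 0.116, edgeR p 0.0417, adjusted p 0.320), with an average of −0.44 (SE 0.0817, edgeR adjusted p 0.00674). The call under ALAN was lost without ALAN day replicate 1 (edgeR adjusted p 0.0919) or 2 (0.0815), or without ALAN night replicate 1 (0.0601) or 4 (0.0718), and with only the ALAN groups in the fit (0.0603).

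CSNK1E DN13848_c1_g1 leaned the other way without passing the test. It had 49.9, 39.4, 38.2 and 41.2 CPM in ALAN night brains, against 43.5, 28.6 and 33.6 CPM in ALAN day brains. In controls it had 52.8, 44.1, 41.8 and 42.8 CPM at night, against 31.1, 33.7 and 48.1 CPM by day. The ranges overlapped in both treatments, with ALAN day replicate 1 and control day replicate 4 reaching night levels. The averaged log2 fold change was 0.26 (95% interval −0.01 to 0.54, edgeR adjusted p 0.299). The log2 ratio of DN5256_c0_g3 to DN13848_c1_g1 counts was lower at night by 0.90, and its night and day values did not overlap. Its two-sided exact permutation p was 0.000816 (adjusted p 0.00204), the smallest that 1225 relabellings can give. DN5256_c0_g3 alone separated all night from all day brains, so this p is no separate evidence for DN13848_c1_g1.

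The members' calls were counted beside those of the whole table. The members were chosen with earlier results of these data known. Of the called features, DN1746_c1_g1 and DN1746_c0_g2 share a read cluster. The counts are therefore no test of the members as a set. Under ALAN, 3 of the 6 were called for night against day (1 higher, 2 lower), where 1.03% of the 20782 tested features were called (0.467% higher, 0.563% lower). In controls 2 of the 6 were called (1 higher, 1 lower), against 2.07% of all features (1.07% higher, 1% lower). For the average of both treatments 3 of the 6 were called (1 higher, 2 lower), against 4.34% of all (2.23% higher, 2.11% lower). Night and day groups without overlap were found for 3 of the 6 under ALAN, 2 in controls and 2 over all 14 fish, and for 11.4%, 13.4% and 2.59% of all features. The median log2 fold change of all features lay between 0.00 and 0.01 in these 3 comparisons.

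**Figure D2:**
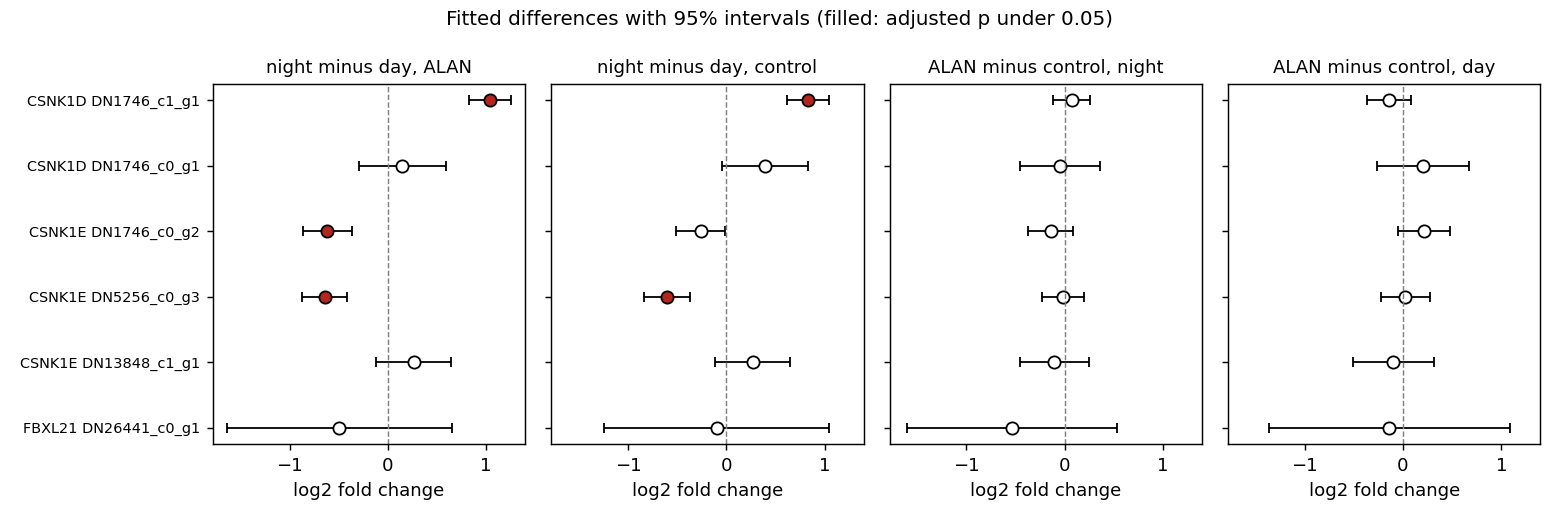
Log2 fold changes (x axis) of the 6 features (y axis) with 95% intervals, for night against day and for ALAN against control; filled points have an edgeR adjusted p under 0.05. The filled points are CSNK1D DN1746_c1_g1 above 0 and CSNK1E DN5256_c0_g3 and DN1746_c0_g2 below 0, all for night against day, and every interval for ALAN against control spans 0.

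Summed by gene name, CSNK1D was higher at night and CSNK1E lower on average over both treatments (log2 fold changes 0.74 and −0.34, edgeR adjusted p 1.18e-05 and 0.000984). The CSNK1D sum averaged 125 ± 9.33 CPM in ALAN night brains (SD, n = 4) and 73.3 ± 3.17 CPM in ALAN day brains (SD, n = 3), a log2 fold change of 0.77 (edgeR adjusted p 0.000458 over 15761 names). In controls it averaged 121 ± 11.1 CPM at night (SD, n = 4) and 74.4 ± 2.76 CPM by day (SD, n = 3), a log2 fold change of 0.70 (edgeR adjusted p 0.000879). The CSNK1E sum was lower at night under ALAN (−0.43, edgeR adjusted p 0.00631) and had a log2 fold change of −0.26 in controls (edgeR adjusted p 0.0783). As its 3 features did not share a direction, the CSNK1E sum describes none of them.

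The shares of the 3 features in the DN1746 cluster were compared next. They sum to the whole cluster, so when a share is higher another must be lower, and they are no separate evidence for either feature. Of the cluster's CPM, DN1746_c1_g1 made up 51.1% ± 3.85 in ALAN night brains (SD, n = 4) and 27.7% ± 1.79 in ALAN day brains (SD, n = 3). In controls this share was 48.1% ± 3.06 at night (SD, n = 4) and 33.0% ± 3.90 by day (SD, n = 3). CSNK1E DN1746_c0_g2 held 32.6% ± 2.08 in ALAN night brains and 55.7% ± 1.92 in ALAN day brains. In controls DN1746_c0_g2 held 35.4% ± 1.09 at night and 51.7% ± 2.31 by day, although its own level did not pass there. The share of CSNK1D DN1746_c0_g1 stayed between 15.4% and 16.6% on average in the 4 groups. Shares are not divided by length, so only their change between groups can be read.

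**Figure D3:**
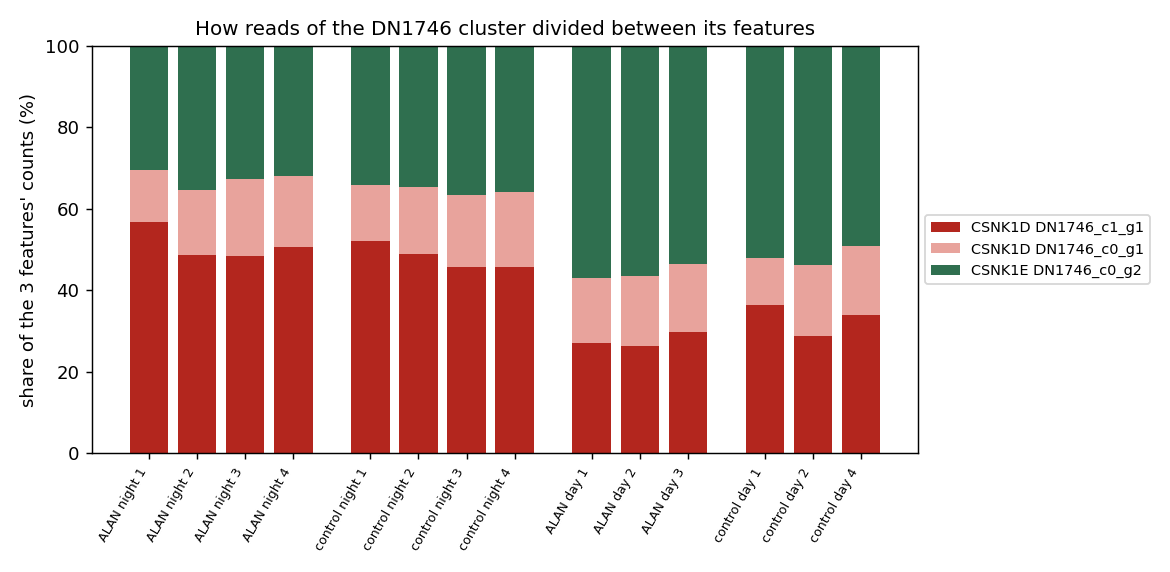
Share in % (y axis) of the summed CPM of the DN1746 cluster held by CSNK1D DN1746_c1_g1, CSNK1D DN1746_c0_g1 and CSNK1E DN1746_c0_g2 in each of the 14 brains (x axis), grouped as ALAN night, control night, ALAN day and control day. DN1746_c1_g1 holds 45.6% to 56.7% in night brains and 26.3% to 36.3% in day brains, while DN1746_c0_g1 holds 11.7% to 19.0% throughout.

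The cluster as a whole differed far less. Its summed level averaged 185 ± 13.0 CPM in ALAN night brains (SD, n = 4) and 166 ± 3.77 CPM in ALAN day brains (SD, n = 3). In controls it averaged 188 ± 17.0 CPM at night (SD, n = 4) and 154 ± 8.57 CPM by day (SD, n = 3). The log2 fold change of the sum, added after the data were seen, was 0.16 under ALAN (edgeR adjusted p 0.598), 0.28 in controls (0.177) and 0.22 on average (0.0903), and none of these passed. The 95% intervals were −0.05 to 0.37 under ALAN, 0.07 to 0.49 in controls and 0.07 to 0.37 on average. Those in controls and on average were wholly positive (edgeR p 0.0114 and 0.00618 before adjustment). Every night brain lay above every day brain under ALAN (lowest night 174, highest day 170 CPM) and in controls (168 and 164 CPM). With both treatments together the ranges overlapped. Equal sums at night and by day were thus not shown. Summing ended the calls of DN1746_c1_g1 and DN1746_c0_g2, and how reads were assigned among the features of the cluster was not tested. CSNK1E DN5256_c0_g3 lies in another cluster and kept its calls in this setting.

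Ratios of counts put the opposite directions side by side. The ratio of CSNK1D DN1746_c1_g1 to CSNK1E DN5256_c0_g3 averaged 1.94 ± 0.170 in ALAN night brains (SD, n = 4) and 0.606 ± 0.0600 in ALAN day brains (SD, n = 3). In controls it averaged 1.85 ± 0.310 at night (SD, n = 4) and 0.680 ± 0.0504 by day (SD, n = 3). No night brain fell below 1.58 and no day brain exceeded 0.738. The night minus day difference was 1.56 on the log2 scale, and for the ratio of DN1746_c1_g1 to DN1746_c0_g2 it was 1.38. Both had a two-sided exact permutation p of 0.000816 within treatments (adjusted p 0.00204 over 10 pairs), the smallest that 1225 relabellings can give. DN1746_c1_g1 and DN5256_c0_g3 each separated all night from all day brains in opposite directions, so the first p was fixed by those levels. The second ratio lies within 1 read cluster. Neither p is separate evidence for a feature. The ratio of DN5256_c0_g3 to DN1746_c0_g2 differed by −0.18 (exact permutation p 0.162), so the 2 night-low features were not shown to differ from each other.

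**Figure D4:**
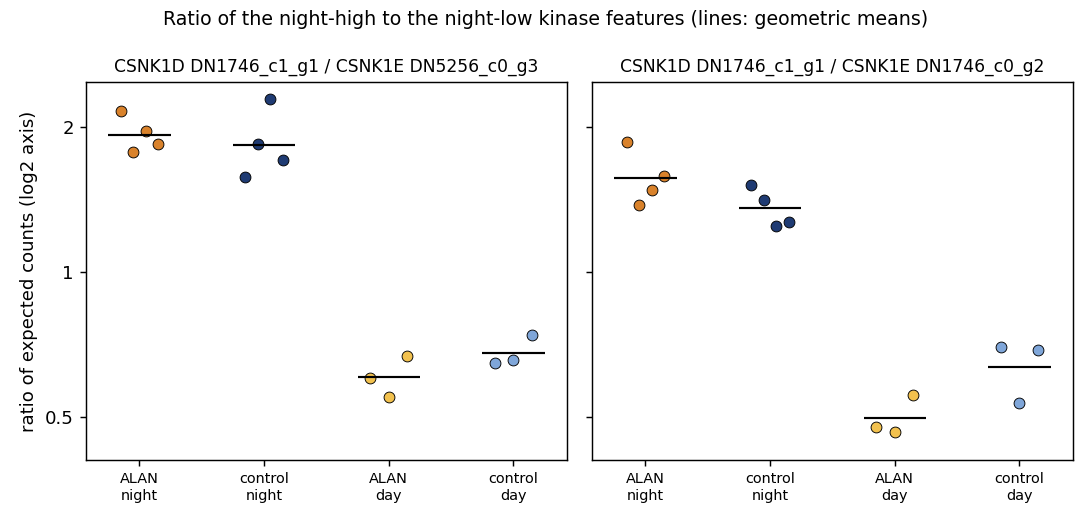
Ratio of expected counts (y axis, log2 scale) of CSNK1D DN1746_c1_g1 to CSNK1E DN5256_c0_g3 and to CSNK1E DN1746_c0_g2, with a point per fish in the 4 groups (x axis) and lines at the geometric means. Night ratios of DN1746_c1_g1 to DN5256_c0_g3 run from 1.58 to 2.29 and day ratios from 0.548 to 0.738; because features differ in length, the height of a ratio carries no meaning and its change between groups does.

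The transcripts that tracked each called feature most closely were looked up among features with another gene name and a mean of at least 1 CPM, over the 14 libraries of all 4 groups. For CSNK1D DN1746_c1_g1 they were PER3, a period gene (Pearson's r 0.975), BHLHE40, a repressor in the clock (0.972), and FAM107B (0.971), among 15946 candidates. For CSNK1E DN5256_c0_g3 they were ARNTL2, a partner of CLOCK (0.964), ZBTB7C (0.959) and RIMKLB (0.957). For CSNK1E DN1746_c0_g2 they were the protocadherins PCDH8 (0.918) and PCDHGC5 (0.916) and the receptor GPR85 (0.912). These values describe log2 CPM across fish that differ in time of day and treatment, and carry no test.

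FBXL21 rested on few reads and varied widely between fish. FBXL21 DN26441_c0_g1 had 2.15, 4.12, 2.93 and 0.659 CPM in ALAN night brains, against 5.18, 2.34 and 2.91 CPM in ALAN day brains. In controls it had 4.33, 5.35, 1.63 and 3.04 CPM at night, against 3.59, 5.05 and 2.87 CPM by day. These levels rest on 13.4 to 107 expected counts per library, and all groups overlapped, with ALAN night replicate 4 the lowest. The averaged log2 fold change for night against day was −0.30 (95% interval −1.10 to 0.51, edgeR adjusted p 0.757), and for ALAN against control at night it was −0.54 (95% interval −1.60 to 0.53), both wider than the same interval of any kinase feature. Its closest transcripts were GSX1 (Pearson's r 0.848), LRRC40 (0.847) and PPP1CB (0.842).

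FBXW11, the close paralogue of BTRC, comes from the same read cluster and ortholog group as the BTRC feature. It averaged 129 ± 15.4 CPM in ALAN night and 121 ± 28.7 CPM in control night brains (SD, n = 4 each), and 145 ± 49.1 CPM in ALAN day and 150.1 ± 8.53 CPM in control day brains (SD, n = 3 each), a night-against-day log2 fold change of −0.24 (edgeR adjusted p 0.442). FBXW11 was called in none of the 7 contrasts.

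ALAN against control gave no call for any member. So few of all features were called that a count of 0 among 6 says little by itself. At night 0 of the 6 features passed in edgeR, 0 had an unadjusted p under 0.05 and DESeq2 called 0. Of all features edgeR called 0.0289%, and 4.61% had an unadjusted p under 0.05, while DESeq2 called 41 of 20782. By day the counts were again 0, 0 and 0, beside 0.00481% and 6.92% of all features and 138 features called by DESeq2. For CSNK1D DN1746_c1_g1 the log2 fold change was 0.07 at night (95% interval −0.12 to 0.26) and −0.14 by day (−0.36 to 0.09). For CSNK1E DN5256_c0_g3 it was −0.01 at night (−0.23 to 0.20) and 0.03 by day (−0.22 to 0.27). For these 2 features the intervals leave out changes as large as their own night-day differences. Averaged over both times, 0 of the 6 were called by edgeR and 0 by DESeq2, with 0 at an unadjusted p under 0.05. Among all features edgeR called 0.00481% and DESeq2 called 154, and 5.71% had an unadjusted edgeR p under 0.05.

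Whether the night-day difference itself depended on ALAN was tested as an interaction. Of the 6 features 0 were called by edgeR and 0 by DESeq2. Over all features edgeR called 0% and DESeq2 called 56 of 20782, and 6.15% had an unadjusted edgeR p under 0.05. CSNK1E DN1746_c0_g2 was the 1 member with an unadjusted p under 0.05, with an interaction of −0.36 on the log2 scale (95% interval −0.71 to −0.0033, edgeR p 0.0482, adjusted p 0.808). It averaged 60.3 ± 5.60 CPM in ALAN night brains and 66.6 ± 7.93 CPM in control night brains (SD, n = 4 each), and 92.5 ± 4.75 CPM in ALAN day brains and 79.7 ± 7.62 CPM in control day brains (SD, n = 3 each). Its call under ALAN and not in controls is therefore not a shown difference between them. The interaction for CSNK1D DN1746_c1_g1 was 0.21 (95% interval −0.09 to 0.50, edgeR adjusted p 0.896). A test of the ratio of DN1746_c1_g1 to DN1746_c0_g2, chosen after these values were seen, gave an interaction of 0.56 (two-sided exact permutation within times, 1400 relabellings, p 0.0186, adjusted 0.186 over 10 pairs). Relabelling within times assumes no ALAN effect at either time, so this p is not specific to an interaction. The ratio averaged 1.58 ± 0.210 in ALAN night and 1.36 ± 0.127 in control night brains. By day it averaged 0.499 ± 0.0496 in ALAN brains and 0.640 ± 0.0929 in control brains.

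PER and CRY are the proteins that these kinases and ligases act on. Of 8 PER and CRY features, 3 were higher at night and 1 lower on average over both treatments, where 4.34% of all features were called. Both PER2 features and the other 2 CRY2 features did not pass. PER1 DN4896_c1_g2 averaged 85.3 ± 11.3 CPM in ALAN night brains (SD, n = 4) and 4.92 ± 1.89 CPM in ALAN day brains (SD, n = 3). In controls it ran from 73.3 to 117 CPM at night, against 2.94 to 3.42 CPM by day, and its averaged log2 fold change was 4.49. The averaged log2 fold changes were 3.64 for PER3, 2.17 for CRY1 DN1907_c0_g2 and −0.70 for CRY2 DN1907_c0_g1. CRY2 DN1907_c0_g1 averaged 101 CPM in ALAN night and 68.6 CPM in control night brains, against 135 CPM in ALAN day and 136 CPM in control day brains. By edgeR 1 substrate was called lower at night in controls and 0 under ALAN, beside 1% and 0.563% of all features. DESeq2 called this CRY2 feature in both, where it called 1108 and 657 of 20782 features. For the interaction 0 of the 8 were called by either, beside 0 features by edgeR and 56 by DESeq2. CRY1 DN1907_c0_g2 and CRY2 DN1907_c0_g1 are neighbours in 1 read cluster as well, and so are PER1 DN4896_c1_g2 and PER2 DN4896_c1_g1. For ALAN, edgeR called 0 of the 8 at night and 0 by day, beside 0.0289% and 0.00481% of all features. Unadjusted edgeR p was under 0.05 in 3 of the 8 at night and 1 by day, beside 4.61% and 6.92% of all features. DESeq2 called CRY2 DN1907_c0_g1 higher under ALAN at night, where it called 41 of 20782 features.

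Other enzymes that modify clock proteins were counted in the same way. Of 23 features of other clock kinases (14 of 16 symbols found), 1 was called for the average of both treatments, a share near the 4.34% of all features. This was MAPK8 DN463_c0_g2, a c-Jun N-terminal kinase, with 139.9 ± 11.7 CPM in ALAN night brains (SD, n = 4) and 175 ± 16.4 CPM in ALAN day brains (SD, n = 3). In controls it averaged 129 ± 13.0 CPM at night (SD, n = 4) and 169 ± 13.7 CPM by day (SD, n = 3), and the averaged log2 fold change was −0.36 (SE 0.0773, edgeR adjusted p 0.0180). DESeq2 called this MAPK8 feature and the GSK3B feature lower, where it called 1793 of 20782 features. These 2 calls among 23 features are again near the share of all features. MAPK8 DN463_c0_g2 shares a read cluster with MAPK10 DN463_c0_g1 (0.04, edgeR adjusted p 0.962), so reads can be divided between them. The other MAPK8 feature, DN4946_c0_g1, was not called (−0.14, edgeR adjusted p 0.688). The list's median was −0.11, against 0.01 for all features.

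**Figure D5:**
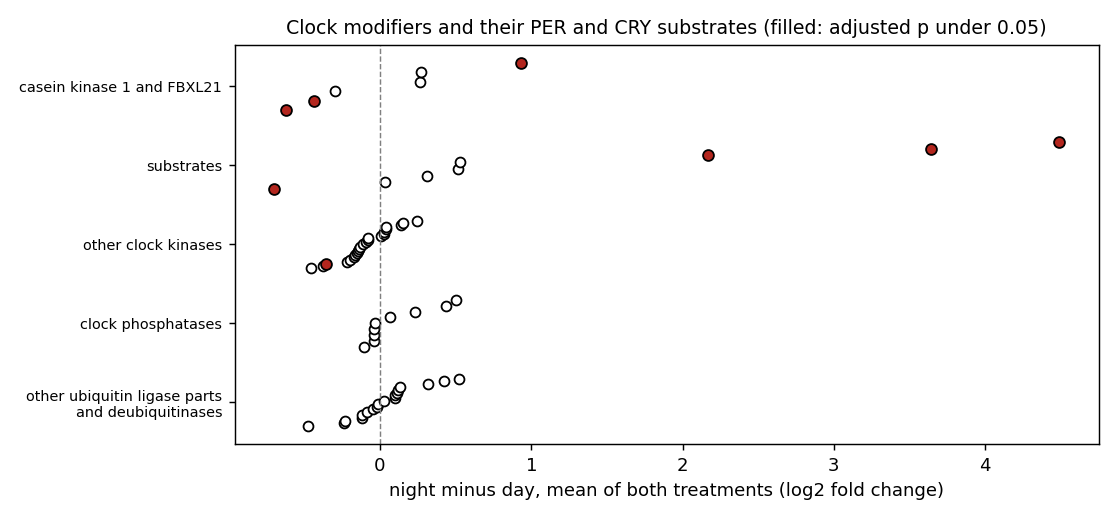
Averaged night-against-day log2 fold changes (x axis) of the members, other clock kinases, phosphatases, ubiquitin ligase parts and deubiquitinases, and the PER and CRY substrates (rows), with a point per feature; filled points have an edgeR adjusted p under 0.05. Apart from the 3 filled members, 1 filled point (MAPK8) lies among the other enzymes, while 4 of the 8 substrates are filled and reach 4.49.

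The share of 4.34% over all features comes to under 1 call in each of the 2 lists that follow, so a count of 0 there says nothing about them. Phosphatases that oppose the kinases gave 0 calls among 9 features (4 of 6 symbols found) in edgeR and in DESeq2 for night against day, with 0 at an unadjusted p under 0.05 and a median of −0.03. Other ubiquitin ligase parts and deubiquitinases gave 0 calls in edgeR among 18 features (12 of 14 symbols found), with a median of 0.01. Before adjustment 3 of them had p under 0.05, UBE3A DN2097_c0_g1 (log2 fold change 0.32, edgeR adjusted p 0.0561), USP2 (0.42, 0.102) and FBXW7 (−0.48, 0.128). An edgeR p of 0.0555 before adjustment ranked only 3860 of 20782 features in this contrast, so such p-values were common. DESeq2 called UBE3A DN2097_c0_g1 and USP2 higher at night, where it called 1793 of the 20782 features. Neither count sets this list apart from all features. For ALAN against control, 0 features of these 2 lists and of the other clock kinases were called at night or by day, by edgeR or DESeq2. Of all 20782 features edgeR called 6 at night and 1 by day, and DESeq2 called 41 and 138. Counts of 0 for ALAN therefore say nothing about these lists.

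Some lists of cell type markers also differed between night and day. Of all features 4.34% were called on average over both treatments and 2.07% in controls. The radial glia and astroglia sum ran from 5572 to 6957 CPM in ALAN night brains and 6308 to 6893 CPM in control night brains, against 4414 to 5830 CPM in ALAN day brains and 3410 to 5770 CPM in control day brains, and 2 of its 8 features were called higher at night on average. The neuron sum ran from 1314 to 1545 CPM in ALAN night brains and 1229 to 1730 CPM in control night brains, against 1718 to 1758 CPM in ALAN day brains and 1546 to 1797 CPM in control day brains, and 1 of its 12 features was called lower. A single call among 12 features says little beside the share of 4.34%. The median log2 fold change of the glial list was 0.49 and that of the neuron list −0.09, on average over both treatments. Among markers of other tissues, skeletal muscle had 2 of 7 features called lower at night on average (median −0.96). Its sums were 28.4 to 72.6 CPM in ALAN night and 90.9 to 223 CPM in control night brains, against 69.3 to 103 CPM in ALAN day brains. Control day replicates 1 and 4 had 699.5 and 635 CPM, while control day replicate 2 had 57.9 CPM, below every control night brain. Liver had 2 of its 5 tested features called lower at night in controls (median −2.92) and 0 called on average. Its sums were 109 to 227 CPM in control night brains, against 212 to 446 CPM in control day brains. Under ALAN the order was the opposite, with 107 to 154 CPM at night and 75.0 to 95.8 CPM by day. Oligodendrocyte, photoreceptor, pituitary and blood markers had 0 features called for night against day, in either treatment or on average. The part of these markers in the kinase differences was not tested.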

How the data were processed

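The deposited table gives expected counts, that is estimated counts per feature of a de novo assembly, for 14 brains, with 95.98% of the values not whole. Trimmomatic 0.39, Bowtie2 and RSEM are listed in the submitters' processing notes, with no role or order. Per the labels these libraries were non-stranded with molecular identifiers. Whether the identifiers were collapsed is not stated in the labels or headers, so repeated reads of a molecule may remain in the counts. The unit of each p-value is the fish. Gene names, the deposited bit score of the best match and its E-value come from eggNOG-mapper 2.1.7, per the file headers. All 14 sample columns were mapped to a sample, and 0 were left over. Another 3 libraries, made for the assembly, were not used here. No genome, sequence or feature length was used.

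Counts were rounded and filtered with filterByExpr (minimum count 10, minimum total 15), which kept 20782 features and removed 1023. TMM factors ran from 0.87 to 1.08. The 14 libraries entered 1 edgeR 4.0.16 quasi-likelihood fit (R 4.3.3) with 4 group means. It left 10 residual degrees of freedom, and 7 contrasts were tested with Benjamini-Hochberg adjustment over all tested features and a threshold of 0.05. SE is the absolute log2 fold change over the square root of F. Ratios of counts used a pseudocount of 0.5 and exact permutations. Steps that compute statistics were tested on simulated data. Values are named for every member feature, for features of the lists that were called, and for the 3 most similar transcripts of a called member or of a name without calls. FBXW11, UBE3A, USP2 and FBXW7 were added after their values were seen. The members and the gene lists were chosen with earlier results of these data known. Alternatives were DESeq2 1.42.0, other scalings, no filter, the compared groups alone, sums by gene name or read cluster, a replicate block and each library left out.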

Additional observations from a re-analysis of the deposited data

How the results depend on the processing

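The counts of members called for night against day were 3 under ALAN, 2 in controls and 3 on average. They were the same with DESeq2 size factors, upper-quartile scaling, no filter and DESeq2. In controls 1 was left with only the groups compared, with sums by gene name and with the DN1746 features summed, and 1 to 2 when a library was left out. Summing DN1746 left 1 under ALAN and 1 on average, and leaving out a library left 2 to 3 under ALAN and 3 on average. Same-numbered fish did not deviate together (mean r −0.015 over 18 pairs), and with the replicate number as a block the counts were 2, 2 and 3, with CSNK1E DN1746_c0_g2 at −0.60 under ALAN (edgeR adjusted p 0.0531). With only the groups compared that feature had −0.61 (0.0603) and CSNK1E DN5256_c0_g3 in controls −0.60 (0.0855). Calls over all features fell too: with only the groups compared they were 126 under ALAN and 191 in controls, and without control day replicate 1 they were 217 in controls. Over all features DESeq2 called 657, 1108 and 1793 and the block 154, 240 and 617, against 214, 430 and 902. CSNK1D DN1746_c1_g1 stayed called without any single library (1.00 to 1.08 under ALAN, 0.78 to 0.88 in controls).

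Signs turned as follows (log2), by construction where features were summed. Summed by name, CSNK1D DN1746_c0_g1 took 0.046 for ALAN at night, −0.020 by day and 0.066 for the interaction, and CSNK1D DN1746_c1_g1 0.013 for ALAN on average. CSNK1E DN13848_c1_g1 took 0.085 for ALAN by day, 0.000277 on average, and −0.43, −0.26 and −0.34 for night against day under ALAN, in controls and on average. With DN1746 summed, DN1746_c1_g1 took −0.016 for ALAN at night, 0.11 by day, −0.12 for the interaction and 0.045 on average, and DN1746_c0_g2 took 0.16, 0.28 and 0.22 for night against day under ALAN, in controls and on average. The interaction of DN13848_c1_g1 was 0.00493 with DESeq2 size factors and 0.00499 in DESeq2, and the cause was not tested.

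Leaving out a library turned the sign of these uncalled values. DN1746_c0_g1 ran from −0.18 to 0.066 for ALAN at night and −0.012 to 0.16 on average. DN5256_c0_g3 ran from −0.082 to 0.051 at night, −0.031 to 0.11 by day, −0.13 to 0.026 for the interaction and −0.029 to 0.051 on average. DN13848_c1_g1 ran from −0.27 to 0.12 by day, −0.22 to 0.18 for the interaction and −0.19 to 0.010 on average. FBXL21 ran from −0.54 to 0.11 for ALAN by day, −0.37 to 0.15 for night against day in controls and −0.74 to 0.016 for the interaction. The log2 ratio of DN1746_c0_g1 to DN13848_c1_g1, night minus day, ran from −0.11 to 0.092 around −0.017.

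With 3 or 4 fish per group, 2 times and unknown colonies, ALAN effects smaller than the intervals given cannot be seen, and colony and treatment cannot be told apart. FBXL21 rests on 13.4 to 107 counts per library and varied widely between fish. Names of the 2 kinases and the division of reads between features of a cluster are limits that these data do not settle.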
